A study of Mus musculus with 36 samples.

Results

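Broad regions of open chromatin with 3 or more summits were described in mesenchymal stem cells (MSCs) from 4 mouse tissues. A region was a stretch that the peak caller had marked as open, and a summit was a local maximum of the signal within it. The lists give each summit on a line of its own, so regions were members when the same start and end stood on 3 or more lines. The members were thus chosen by the number of listed summits, a measured value of the same lists, and their number, width, fold enrichment and sharing are given as descriptions without a test. There were 1862 members among 99337 regions in femoral bone marrow MSCs (fBM-MSCs), 2356 of 88381 in vertebral bone marrow MSCs (vBM-MSCs), 3041 of 98008 in adipose MSCs (A-MSCs) and 2013 of 88465 in pulmonary MSCs (P-MSCs). In all, 9272 of 374191 regions were members. Where values of the 4 tissues stand side by side, the cells are called femoral, vertebral, adipose and pulmonary.

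The cells came from 8-week-old C57BL6/J mice, with no genetic change or drug treatment that differed between tissues. Marrow cells were set free by crushing bone, lung and adipose cells by collagenase, and all were grown in MesenCult medium with a Rock inhibitor and used within 3 passages, so that each group is a cultured population and not the tissue itself. Chromatin accessibility was measured by ATAC-seq from 3 replicates sequenced in 2 runs per tissue, and was deposited as 1 pooled list per tissue, which leaves no replicate spread for any region. RNA was analysed in 3 libraries of femoral cells, 2 of vertebral cells, 3 of adipose cells and 3 of pulmonary cells. These held 19569650 to 40517739 expected counts and were not used to choose the regions. The labels also list a replicate 3 of vertebral cells, which was not analysed. The tissues came from the same 3 mice, but the labels do not tie a library to a mouse, so p-values measure the spread between these libraries. In all 11 libraries the 9 mesenchymal markers were present, with a summed level of 1130 to 2570 TPM (a length-scaled share of a library's transcripts). Of the blood markers, Ptprc, Spi1 and Adgre1 were under 1 TPM and Hbb-bs at 0 in every library, while the 8 blood markers summed to 59.6 to 115 TPM in fBM-MSCs and 12.3 to 50 TPM in the other tissues. The 4 epithelial markers were under 1 TPM everywhere, the 4 endothelial markers summed to at most 5.8 TPM, and the 5 mesothelial markers summed to 57.8 to 76.1 TPM in A-MSCs against at most 4.14 TPM in the other tissues. The part of these other cell types in the results below was not tested.

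In ATAC-seq the Tn5 transposase inserts adaptors into DNA that is not wrapped in nucleosomes or covered by other protein. Active promoters and enhancers therefore appear as peaks, usually narrow ones. A wide stretch with several maxima is known from strongly transcribed genes, from CpG island promoters and from groups of neighbouring enhancers. Fold enrichment here is the summit's pileup of reads over a background that was the same for the whole genome, with 1 read added to both, and since it moved in steps of 0.368 in each list, the scale was the same in the 4 tissues. The background pileup that this step gives was 1.718 to 1.7185 reads in each list.

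The windows that follow hold 50 bases on each side of a tall summit, on the forward strand of GRCm38 from RefSeq, and are shown because they mark the loci that the values turn on. The locus with the most summits in all 4 tissues lay over Neat1, at chr19:5815822-5850665, and its tallest summit was upstream of the start site at chr19:5848465-5848565. The loci with the most summits in a single tissue follow. They were the shared promoter of Gm16675 and Irf2 in femoral cells at chr8:46739549-46739649, intergenic DNA nearest to Hjurp in vertebral cells at chr1:88287810-88287910, DNA upstream of Gm45521 in adipose cells at chr14:7954269-7954369, and intergenic DNA nearest to Def8 in pulmonary cells at chr8:123427748-123427848. Capitals mark matches to the motifs searched, and Neat1 and Gm45521 had none in these windows.
Neat1, all tissues: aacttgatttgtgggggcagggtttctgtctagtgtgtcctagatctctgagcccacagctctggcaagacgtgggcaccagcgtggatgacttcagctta
Gm16675, fBM-MSCs: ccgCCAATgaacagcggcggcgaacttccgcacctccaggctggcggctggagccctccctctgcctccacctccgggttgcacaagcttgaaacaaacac
Hjurp, vBM-MSCs: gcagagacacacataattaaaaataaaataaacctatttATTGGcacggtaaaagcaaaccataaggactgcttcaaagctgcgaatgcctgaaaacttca
Gm45521, A-MSCs: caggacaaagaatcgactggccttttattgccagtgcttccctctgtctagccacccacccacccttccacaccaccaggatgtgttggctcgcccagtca
Def8, P-MSCs: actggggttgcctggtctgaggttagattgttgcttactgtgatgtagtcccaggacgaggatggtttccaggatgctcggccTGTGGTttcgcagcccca

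Further windows come from genes that members covered as a whole or over their 3′ part, and were chosen after their values were seen. The Thbs1 window at chr2:118127538-118127638 and the Csf1 window at chr3:107739690-107739790 lay past the 3′ end of the gene. The Cyr61 window at chr3:145650001-145650101 lay just upstream of the start site. At Cyr61, 2 windows that reached into a UTR were passed over in favour of the next tallest summit. Capitals mark a GATA match in Thbs1 and a TEAD match (GGAATG) in Cyr61.
Thbs1: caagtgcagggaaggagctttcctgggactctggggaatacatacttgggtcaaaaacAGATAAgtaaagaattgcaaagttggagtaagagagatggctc
Csf1: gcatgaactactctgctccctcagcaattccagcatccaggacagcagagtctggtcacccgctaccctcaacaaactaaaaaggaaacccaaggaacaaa
Cyr61: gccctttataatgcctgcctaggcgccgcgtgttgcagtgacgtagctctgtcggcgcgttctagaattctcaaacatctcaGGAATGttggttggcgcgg

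Members were a small share of the regions in each tissue and a larger share of the open DNA. They made up 1.874% of regions in femoral cells (exact binomial 95% interval 1.791 to 1.961%), 2.666% in vertebral cells (2.561 to 2.774%), 3.103% in adipose cells (2.995 to 3.213%) and 2.275% in pulmonary cells (2.178 to 2.376%), and these intervals cover counting error only. With 1 list per tissue, the order of the shares from fBM-MSCs up to A-MSCs could not be set against replicate spread. Members held 5.777% of all summits and 6.513% of all open bases in femoral cells, 8.008% and 8.747% in vertebral cells, 9.329% and 10.04% in adipose cells, and 6.862% and 7.519% in pulmonary cells. A-MSCs had the most members and the most open DNA in them, 5.118 Mb, against 3.008 Mb in fBM-MSCs.

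Most members held few summits. Exactly 3 summits were listed in 1358 members of femoral cells, 1727 of vertebral cells, 2160 of adipose cells and 1509 of pulmonary cells. Regions with 10 or more summits numbered 11, 11, 18 and 11 in the same order. The highest number in a single region was 25 in femoral cells, 45 in vertebral cells, 62 in adipose cells and 39 in pulmonary cells.

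Members were wider than the other regions in each of the 4 lists, and their tallest summit was higher. Their median width was 1500 bp in femoral cells, 1516 bp in vertebral cells, 1564 bp in adipose cells and 1546 bp in pulmonary cells, against 360 to 384 bp for regions with 1 summit. The median fold enrichment of their tallest summit was 13.98, 14.35, 15.45 and 16.55, against 5.518 to 6.254 for regions with 1 summit. That is a maximum over more summits. The median over members of the median fold of their summits was 8.093 to 8.462, above the 5.518 to 6.254 of regions with 1 summit and below the 8.645 to 9.748 of regions with 2 summits, and the median fold of their lowest summit was 5.518 or 5.519 in each tissue. The threshold did not mark a gap in these values. Just inside it, regions with 3 summits had median widths of 1391, 1402, 1418 and 1439 bp and median top folds of 13.61, 13.98, 15.08 and 15.82. Just outside it, regions with 2 summits had median widths of 925, 931, 969 and 971.5 bp and median top folds of 10.3, 10.67, 11.77 and 12.51. Height alone did not separate the classes, since 12.03% to 14.22% of all other regions had a top fold at or above the members' median, and a region with 1 summit reached 563.2 in fBM-MSCs. Neighbouring summits of members lay a median of 384, 373, 392 and 405 bp apart, and those of regions with 2 summits 383, 372.5, 391 and 411 bp.

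**Figure D1:**
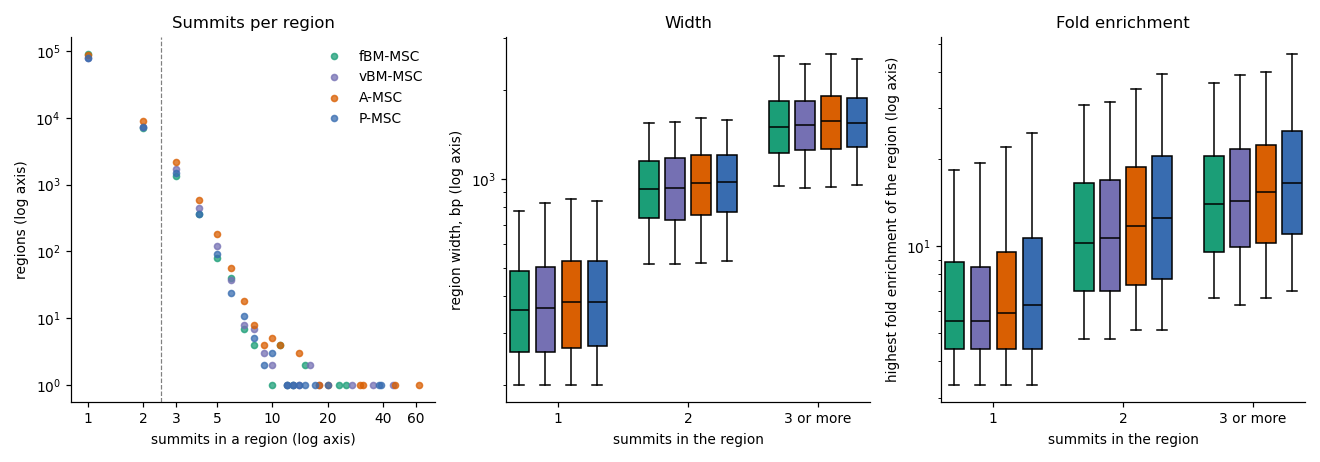
Left, number of regions (log axis) by number of summits (log axis) in each tissue, with a dashed line at the threshold for members. Middle and right, width in bp and highest fold enrichment (log axes) of regions with 1, 2, or 3 or more summits, as boxes from the lower to the upper quartile with the median, and whiskers at the 5th and 95th percentiles of regions; median width rises from 360 to 384 bp at 1 summit to 1500 to 1564 bp at 3 or more.

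The longest members of A-MSCs and P-MSCs lay over the Neat1 gene, whose long noncoding RNA forms the core of nuclear paraspeckles. At Neat1, members held 41 summits in femoral cells, 44 in vertebral cells, 65 in adipose cells and 50 in pulmonary cells. The widest of them measured 11876, 12772, 31585 and 21987 bp in that order. Within the 20.8 kb of the gene lay 37, 36, 43 and 31 of these summits. Past the 3′ end, members held 17 summits in adipose cells and 11 in pulmonary cells, but 1 in femoral cells and 0 in vertebral cells. The DNA there was not closed in marrow, since regions of any kind within 10 kb of the gene held 13 summits past the 3′ end in femoral cells and 8 in vertebral cells, against 18 in adipose cells and 16 in pulmonary cells. Counting all regions, 64, 60, 67 and 62 summits lay at Neat1 in femoral, vertebral, adipose and pulmonary cells, in 25, 19, 4 and 12 regions. The tallest summit had a fold of 29.06 in femoral cells, 22.81 in vertebral cells, 42.31 in adipose cells and 38.99 in pulmonary cells, so the 2 marrow lists were lower than the other 2 here.

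Thbs1 encodes thrombospondin 1, a secreted matrix glycoprotein that activates latent TGF-beta. Its locus at chr2:118109691-118132771 also holds the start site of Gm13986. Members there held 34 summits in femoral cells, 48 in vertebral cells, 46 in adipose cells and 43 in pulmonary cells, with top folds of 17.29, 30.54, 43.41 and 44.51. In vertebral cells and adipose cells a single region of 21067 bp and 23008 bp covered the gene, whereas in femoral cells the signal was split into 4 members, the widest of 5221 bp. The median fold of these summits was 7.541 in fBM-MSCs and 14.35 to 16.37 in the other tissues. Summits of members past the 3′ end numbered 3 in fBM-MSCs and 13, 10 and 11 in the others, and the tallest summit of the locus was among them in every tissue. With regions of any kind the fBM-MSC number was 6 and the others stayed at 13, 10 and 11.

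Csf1 encodes the macrophage growth factor M-CSF, which stromal cells supply to osteoclast precursors. Members within 10 kb of the gene held 25 summits in femoral cells, 18 in vertebral cells, 45 in adipose cells and 34 in pulmonary cells, and none of them lay upstream of the start site. They covered parts of the gene body and the DNA past the 3′ end instead, where 5, 11, 18 and 10 summits lay. Regions of any kind within 10 kb held 50, 42, 56 and 48 summits, of which 14, 14, 19 and 13 lay past the 3′ end and 2 to 4 upstream. The locus with the most summits was chr3:107731973-107747550, with top folds of 24.28, 17.66, 42.67 and 26.12, A-MSCs being the highest.

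Cyr61 and Ctgf encode secreted matricellular proteins of the CCN family, both well-known targets of YAP and TEAD. Ctgf was covered as a whole in every tissue by a single member of 5130 to 5284 bp with 11 summits in femoral cells, 8 in vertebral cells, 9 in adipose cells and 10 in pulmonary cells. Cyr61 lay whole inside a member only in vBM-MSCs, with 16 summits in 7019 bp, and elsewhere the signal was split, with at most 7 summits in a member.

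**Figure D2:**
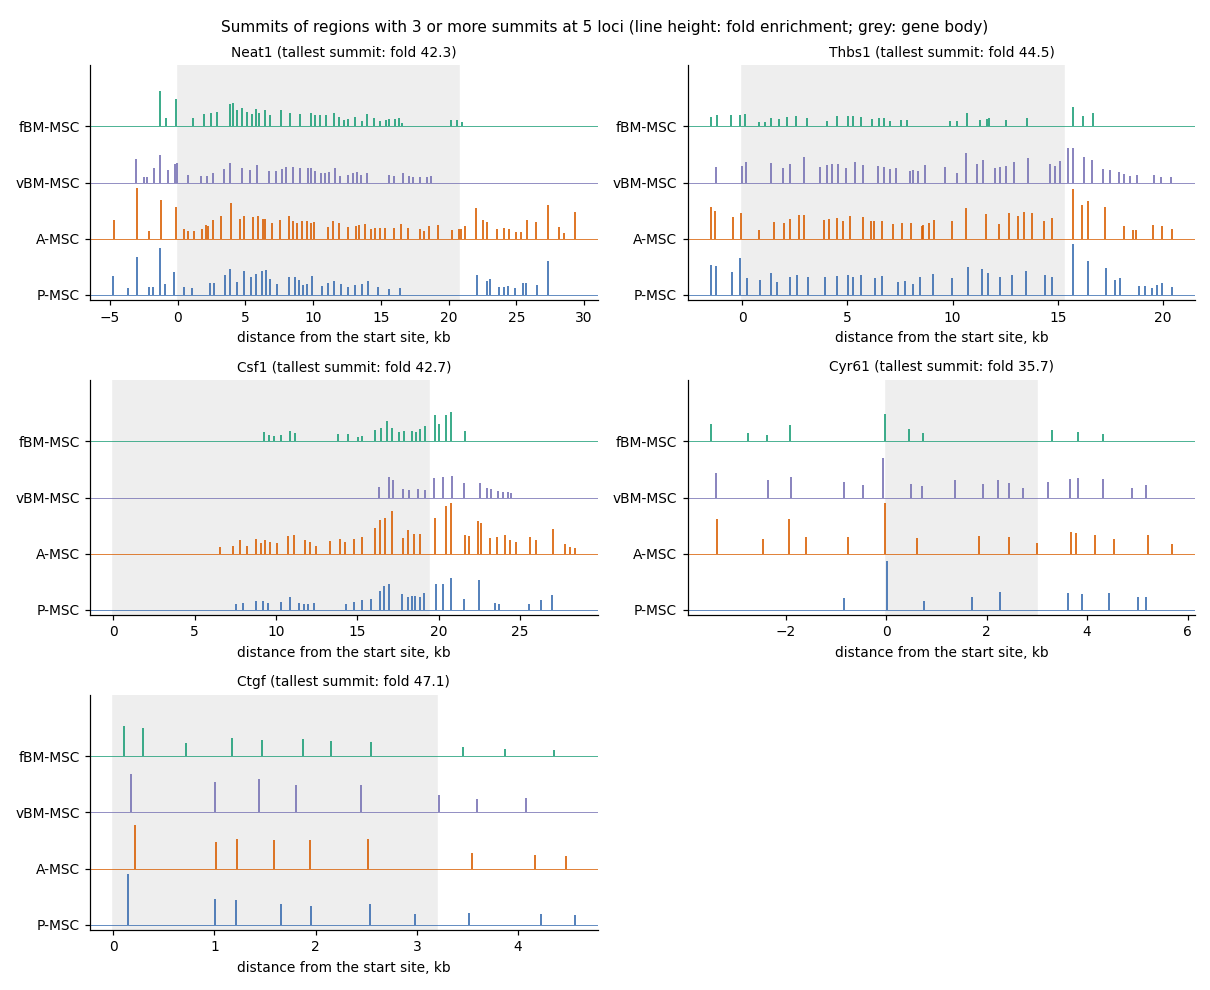
Summits of members around Neat1, Thbs1, Csf1, Cyr61 and Ctgf. Each line is a summit, its height the fold enrichment on a scale shared by the 4 tissues within a panel, against the distance from the start site in kb in the direction of transcription, with the gene body in grey; at Csf1 no summit of a member lies upstream of the start site, and at Neat1 the summits of members past the 3′ end number 17 in A-MSCs against 11 in P-MSCs.

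A cluster of loci on chromosome 11 over Pisd-ps1 and Sfi1 also stood among the largest. Sfi1 encodes a centrosomal protein and Pisd-ps1 is a pseudogene. The locus chr11:3130287-3148810 held 33, 35, 30 and 30 summits in femoral cells, vertebral cells, adipose cells and pulmonary cells, and chr11:3159378-3169407 held 15, 18, 16 and 19. The tallest summit of any member of fBM-MSCs, at a fold of 179.2, lay in chr11:3152163-3159280, where the other tissues reached 67.7, 31.27 and 37.15. Copies elsewhere in the genome touch parts of this cluster. Of the 32-base words in the first of these loci, 23.2% also occurred at another place in the genome, and 8.52% in the second. In the locus of the 179.2 fold the share was 4.5%, close to the 4.33% at Neat1, and Thbs1 had 0.798%. Over all 5362 loci, 4916 (91.7%) had under 5% of such words and 36 (0.671%) had at least 50%, among them the loci nearest to C87414 and Speer4d. C87414 was the gene nearest to the most members in femoral cells and adipose cells, with 7 and 10, and shared that place with Cemip in vertebral cells, at 7 each. Words were counted on the assembled chromosomes and the mitochondrial genome. Copies outside them could not be seen, so a low share does not make a locus unique. The authors kept uniquely aligned reads, and how far the copies affect these summits was not tested.

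The genes nearest to the most members were in part the same in each tissue. C87414 and Sfi1 were near the top in all 4. After C87414, Neat1 with 6 members and Sfi1 with 5 led in fBM-MSCs. Cemip, which encodes a hyaluronan-degrading protein, led in vBM-MSCs beside C87414, ahead of Mesdc2, Neat1, Pisd-ps1, Sfi1 and Trim27 with 4 each. In A-MSCs, Sfi1 had 8, Fbln2 (the matrix protein fibulin 2) had 7, and Gm45521, Myh9 and Plec had 5 each; Myh9 encodes a nonmuscle myosin heavy chain and Plec the cytoskeletal linker plectin. In P-MSCs, Sfi1 had 7, and C87414 and Csf1 had 5 each. Of 1751, 2219, 2744 and 1887 genes that were nearest to any member, 19, 13, 43 and 15 were nearest to 3 or more. The share of regions that were members was highest on chromosome 19 in each tissue, at 2.595%, 3.84%, 4.405% and 3.062%, and lowest on chromosome 14 at 1.284% in femoral cells and 2.065% in vertebral cells, and on chromosome 1 at 2.156% in adipose cells and 1.659% in pulmonary cells.

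Most members lay over a transcription start site of a curated RefSeq transcript. A start site was inside 73.68% of members in femoral cells, 73.85% in vertebral cells, 66.98% in adipose cells and 70.94% in pulmonary cells. Among regions with 2 summits the share was 39.76% to 45.13%, and among regions with 1 summit 7.608% to 9.165%. Of the summits of members, 62.07% to 68.68% lay within 1 kb of a start site, 14.76% to 17.42% in introns, 13.39% to 17.11% between genes and 3.062% to 3.724% in exons beyond 1 kb of a start site. A-MSCs had the lowest share at start sites and the highest in introns and between genes. Within members over a single direction of transcription, the open stretch reached further into the gene than upstream of it. The median was 548 bp upstream and 904 bp downstream in femoral cells, 556 and 925 bp in vertebral cells, 603 and 953 bp in adipose cells, and 599 and 931 bp in pulmonary cells. In regions with 1 summit the corresponding medians were 293 to 308 bp and 317 to 359 bp. The lean downstream was not particular to members, since the downstream side was the longer in 69.7% to 71.4% of them and in 72.0% to 72.2% of regions with 2 summits, against 54.1% to 55.7% at 1 summit. Members reached at least 1 kb downstream in 39.6% to 46.0% of cases and as far upstream in 16.1% to 18.5%.

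Some genes had a curated transcript that lay inside a member from end to end. A short transcript was enough, as for Neat1 in pulmonary cells with a transcript of 3185 bp. Such genes numbered 53 in femoral cells, 50 in vertebral cells, 67 in adipose cells and 45 in pulmonary cells. Regions with 1 summit, of which there were far more, held 62, 79, 83 and 83. The longest transcripts covered were those of Neat1 in adipose cells, Thbs1 in vertebral cells and adipose cells, and Ctgf in every tissue. Tnfrsf12a, the receptor for the cytokine TWEAK, was covered in femoral cells with 6 summits, in vertebral cells with 9 and in adipose cells with 5. Junb, a subunit of the AP-1 transcription factor, was covered in fBM-MSCs and vBM-MSCs with 6 summits each. Cflar, which encodes the caspase inhibitor c-FLIP, has a short curated transcript that was covered with 6 summits in femoral cells, 7 in adipose cells and 5 in pulmonary cells. Id3, an inhibitor of bHLH factors, was covered in fBM-MSCs, and the immediate early gene Ier2 in P-MSCs, with 3 summits each.

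Members of different tissues that overlapped by at least 1 base were merged into 5362 loci. Of these, 3065 (57.16%) held a member of 1 tissue, 1179 (21.99%) of 2, 692 (12.91%) of 3 and 426 (7.945%) of all 4. Loci shared by more tissues were wider, with medians of 1289, 1673, 1930.5 and 2272.5 bp from 1 to 4 tissues, and held a start site more often, in 56.05%, 76.59%, 81.65% and 83.8%. A merged locus grows with each region it joins, so its width rises in part by construction. Adipose cells alone held 1200 loci, vertebral cells 767, pulmonary cells 568 and femoral cells 530. Among pairs, vertebral cells with adipose cells held 321 loci and adipose cells with pulmonary cells 284, whereas the 2 marrow tissues held 149. Of the members of femoral cells 47.64% overlapped a member of vertebral cells and 52.74% a member of adipose cells. Of the members of vertebral cells 37.18% overlapped a member of femoral cells and 51.53% a member of adipose cells. A-MSCs had the most members, and shares of overlap with them were highest for each of the other tissues.

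**Figure D3:**
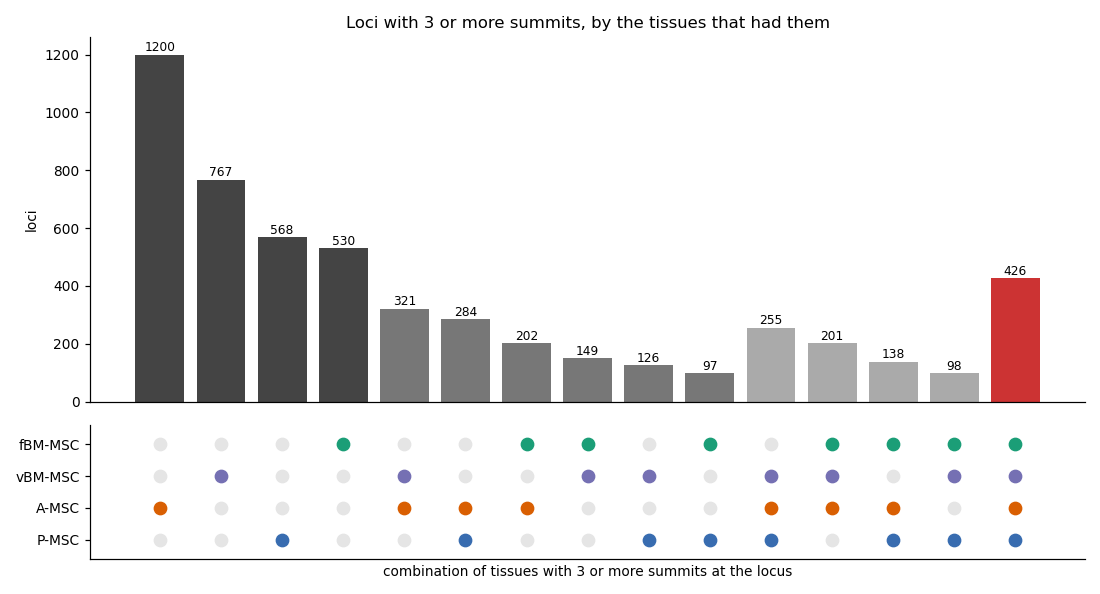
Number of loci (bars) for each combination of tissues that had a member there (coloured dots below each bar). The 426 loci of all 4 tissues are in red, and loci of A-MSCs alone are the most numerous at 1200.

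A locus with a member in a single tissue was seldom closed in the others. Of the members, 97.96% in femoral cells, 97.16% in vertebral cells, 95.53% in adipose cells and 98.01% in pulmonary cells overlapped a region of any kind in each other tissue, against 83.09% to 88.25% of regions with 2 summits and 43.32% to 50.42% of regions with 1 summit. Members with no region in any other tissue numbered 4, 6, 18 and 2. A wide region has more bases in which to overlap, which was not corrected for. Here and below, the fold of another list at such a locus is that of the tallest summit of any region overlapping it. That summit may lie outside the locus. Loci without a region in a list are left out of the median of that list. At the loci of femoral cells alone, the median top fold was 11.4 in femoral cells and 12.51, 13.61 and 13.61 in vertebral cells, adipose cells and pulmonary cells, so the median was not lower elsewhere. At those of vertebral cells alone it was 11.41, against 11.4 in femoral cells, 13.24 in adipose cells and 13.61 in pulmonary cells. At those of A-MSCs alone it was 12.88, against 11.04, 11.96 and 13.24, and at those of P-MSCs alone 13.98, against 11.77, 12.88 and 13.24. The number of summits at these loci differed from the other lists by the way they were chosen, and the loci were seldom closed elsewhere.

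The loci of a single tissue with the most summits had folds above, near or below those of the other lists. The Gm16675 and Irf2 promoter at chr8:46739128-46742101 held 6 summits in fBM-MSCs, and the other lists had regions of at most 2 summits there, with folds of 12.14, 16.19 and 13.61 against 15.45. Irf2 is an interferon regulatory factor. The promoter of Megf9 at chr4:70534389-70536740 held 5 summits in fBM-MSCs and 1 or 2 elsewhere, with a fold of 32 there and 33.85 to 44.88 in the other lists. The promoter of the immediate early gene Ier5 had 5 summits in fBM-MSCs and regions of at most 2 elsewhere, with folds of 22.07 and 28.33 to 30.9. Loci near Hmox1, the heme oxygenase gene, and near Btbd11 completed the 5 of fBM-MSCs, with 6 and 5 summits. Near Hmox1 the fold was 8.461 in femoral cells, and regions of 1 summit reached 4.415 in vertebral cells, 4.415 in adipose cells and 5.518 in pulmonary cells. Near Btbd11 it was 9.197 in femoral cells, in a locus 0.4 kb from the start site. The other lists reached 25.01 to 28.33 in overlapping regions, whose tallest summit may lie outside the locus. In vBM-MSCs, 6 summits lay near Hjurp and 6 at Slc4a2, and 5 each at the promoters of Ino80d, Rcn1 and Zfp703. Near Hjurp the fold was 10.67 in vertebral cells, 10.3 in femoral cells, 11.4 in adipose cells and 9.196 in pulmonary cells.

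Among the loci of A-MSCs and P-MSCs, folds elsewhere ranged from no region to above those of the member. Around the start site of Gm45521, chr14:7951738-7957353 held 11 summits in adipose cells with a fold of 21.34, where femoral cells reached 7.357, vertebral cells 18.4 and pulmonary cells 20.23, in regions of at most 2 summits. At Ahnak, which encodes a giant scaffold protein, a member of A-MSCs had 7 summits and a fold of 23.54, against 15.45, 20.97 and 27.59. A locus 67.8 kb from the start site of Fbln2 had 7 summits and a fold of 18.03 in adipose cells, against 8.093 in femoral cells, 7.726 in vertebral cells and 16.19 in pulmonary cells. The locus near S100a11 had no region in femoral cells and folds of 4.415 in vertebral cells and 5.518 in pulmonary cells, against 9.933 in adipose cells. Near Itga5, the integrin alpha 5 gene, a member of A-MSCs had 6 summits and a fold of 26.12, where P-MSCs reached 36.05 in a region of 2. In P-MSCs, chr8:123426190-123430145 lay 12.8 kb from the start site of Def8, held 7 summits with a fold of 27.59, and had no region in any other tissue. Of its 32-base words, 11.9% occurred elsewhere in the genome. The other loci of P-MSCs lay at the promoters of the transcription factor genes Patz1 and Yy1, at that of the kinase gene Sgk1, and 14.6 kb from Creb3l1, and each was open in all 4 tissues. Loci of both marrow tissues and neither other tissue were led by the promoters of Ubald1 and Zdhhc14, a locus near Gltscr1l, and the promoters of Ankrd17 and Ppm1l, with 8 to 10 summits summed over the 2 tissues.

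Motifs were searched on both strands in windows of 100 bases on each side of a summit. They were AP-1 (TGACTCA or TGAGTCA), TEAD (GGAATG), RUNX (TGTGGT or TGCGGT) and the CArG box. The GATA motif was AGATAA or AGATAG, also with a leading T. The GC-rich Sp1 motif was searched as GGGCGG and the ETS motif of that family of factors as CCGGAA. The promoter motif of NF-Y was CCAAT and the motif of cyclic AMP response elements (CRE) was TGACGTCA. A match is a run of letters and not a bound site. AP-1 is the dimer of Fos and Jun proteins that binds many enhancers of mesenchymal cells, and Sp1 binds GC-rich promoters. AP-1 matches stood in 4.45% to 6.55% of the windows of members over the 4 tissues, against 9.75% to 14.0% in regions of 2 summits and 21.3% to 29.8% in regions of 1. Sp1 matches ran the other way, at 32.8% to 37.8%, 25% to 28.8% and 9.91% to 11.3%. The mean G+C content was 58.5% to 60.2% in members and 49.1% to 49.3% in regions of 1 summit, and the observed to expected ratio of CpG was 0.669 to 0.716 against 0.334 to 0.355. Over all summits, ETS matches were more frequent in members, at 9.69% to 10.8% against 4.5% to 4.91%. TEAD, RUNX, GATA and NF-Y matches were less frequent, with TEAD at 9.69% to 11% against 17.6% to 20.8%. CRE matches stood in 0.861% to 1.13% against 0.539% to 0.664%, and CArG boxes in 0.766% to 0.984% against 0.983% to 1.28%.

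Since the share of summits at start sites differed between these classes, the windows were also split by distance. Over 1 kb from a start site, AP-1 matches still fell in frequency with the number of summits, from 23.9% to 33.6% in regions of 1 summit to 15.8% to 23.3% in regions of 2 and 8.83% to 12% in members. Sp1 matches there stood in 5.16% to 5.67%, 8.34% to 9.46% and 12.7% to 15.5%. Within 1 kb of a start site, Sp1 matches stood in 41.5% to 45.4% of windows of regions of 1 summit and 45.2% to 48.3% of those of members. AP-1 matches there were rare in every class, at 5.02% to 6.7% in regions of 1 summit and 2.45% to 3.61% in members. Where members over 1 kb from a start site were represented by their tallest summit alone, AP-1 matches rose to 12.2% to 22.0%, against 23.9% to 33.6% in regions of 1 summit. These AP-1 ranges of the 4 tissues did not overlap between members and regions of 1 summit. The range of regions of 2 summits, 19.7% to 28.9%, overlapped both.

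The directions of ETS and CRE depended on the distance. Over 1 kb from a start site ETS matches stood in 4.94% to 5.93% of the windows of members against 2.84% to 3.04% in regions of 1 summit, but within 1 kb in 12.6% to 13.1% against 14.9% to 16.3%. CRE matches stood in 0.494% to 0.79% against 0.339% to 0.439% in the distant windows, and in 0.967% to 1.4% against 1.79% to 2.01% in those near a start site. NF-Y depended on which summits were taken. Over all summits NF-Y matches stood in 18.3% to 20.7% of the windows of members against 23.4% to 24.2%, whereas at the tallest summit of each region they stood in 24.9% to 28.4% against 23.4% to 24.2%. At tallest summits over 1 kb from a start site the NF-Y ranges overlapped, at 22.4% to 24.9% against 23.1% to 23.7%. TEAD matches were less frequent in members on both sides of the split, at 7.44% to 8.32% against 8.76% to 10.2% within 1 kb and 13.5% to 16.1% against 18.8% to 22.4% further away.

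**Figure D4:**
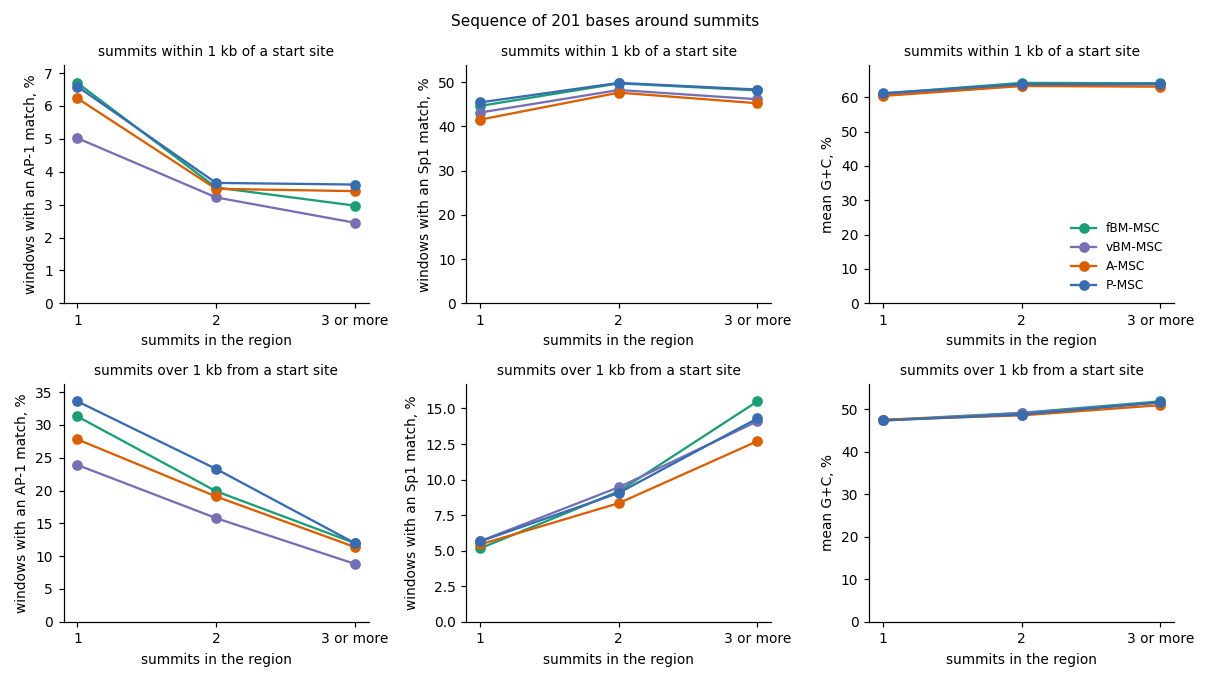
Percent of windows around summits with an AP-1 or Sp1 match, and mean percent G+C, by the number of summits in the region; points are tissues, upper panels show summits within 1 kb of a start site and lower panels those further away. Among the distant summits, AP-1 matches fall from 23.9% to 33.6% at 1 summit to 8.83% to 12% at 3 or more.

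RNA was read next, as a measure that the choice of regions did not use. Genes with no region over their start site had a median of 0 TPM in every library. The median was 4.69 to 6.805 TPM over the 11 libraries where the region over the start site had 1 summit, 8.195 to 10.97 TPM at 2 summits and 8.255 to 10.88 TPM at 3 or more, and at 5 or more it was 6.67 to 12.89 TPM. The medians of members and of regions with 2 summits covered nearly the same range. The share of genes at 1 TPM or more was 5.8% to 8.29%, 68.2% to 75.1%, 80.3% to 84.6% and 82.8% to 87.4% from 0 summits to members.

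The genes under the largest loci did not share a level of RNA. Thbs1 was among the most abundant, at ranks 39 to 133 of 24411 genes over the libraries. It stood at 1226, 1442 and 1143 TPM in femoral cells, 2302 and 2612 TPM in vertebral cells, 1320, 1297 and 1288 TPM in adipose cells, and 1608, 1664 and 1715 TPM in pulmonary cells. Both vBM-MSC libraries were above all others, and the log2 difference of vBM-MSCs from the mean of the other tissues was 0.79 ± 0.08 (SE; edgeR adjusted p = 7.56e-05). The fBM-MSCs, whose Thbs1 signal was split into 4 members, differed by −0.43 ± 0.08 (adjusted p = 0.0011). Cyr61 stood at 567, 637 and 519 TPM in femoral cells, 1264 and 1633 TPM in vertebral cells, 945, 1014 and 1018 TPM in adipose cells, and 1104, 1097 and 1156 TPM in pulmonary cells. The fBM-MSC libraries were the lowest, at a log2 difference of −1.0 ± 0.08 (adjusted p = 7.88e-06), and the vBM-MSC libraries, where a single member covered the gene, the highest, at 0.72 ± 0.09 (adjusted p = 0.000187). Ctgf ranked 38 to 167, and its vBM-MSC libraries stood at 1967 and 2613 TPM, against 1048 to 1768 TPM elsewhere (log2 difference 0.67 ± 0.16, adjusted p = 0.0124).

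Csf1 stood at 295 to 491 TPM over all libraries, and no contrast passed the test (lowest adjusted p = 0.096, for pulmonary cells at −0.28 ± 0.13), while its summits ranged from 18 in vertebral cells to 45 in adipose cells. Neat1 ranked 6179 to 12790. It stood at 1.65, 4.11 and 9.09 TPM in femoral cells, 0.56 and 2.4 TPM in vertebral cells, 0.61, 0.14 and 0.63 TPM in adipose cells, and 2.67, 4.55 and 3.57 TPM in pulmonary cells. In A-MSCs, where Neat1 had the most summits, its RNA was lower than in the other tissues by a log2 difference of −1.99 ± 0.55 (adjusted p = 0.0187). The long Neat1 isoform carries no poly(A) tail, and Smart-seq2 primes on such tails. Sfi1 stood at 0.09 to 1.36 TPM over all libraries, so a cluster of many summits also lay over a gene of little RNA. How far copies outside the assembled chromosomes add to the summits of that cluster was not tested. Smart-seq2 does not mark strand, so that reads of Thbs1 and Gm13986, or of Ctgf and Gm15270, cannot be told apart where they overlap, and in bulk samples fewer cells of a type cannot be told apart from less RNA per cell.

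Genes at loci of a single tissue were compared between tissues with edgeR's quasi-likelihood test over 12509 genes, each tissue against the mean of the other 3. These contrasts share libraries and are not independent of each other. In fBM-MSCs, 319 tested genes had a start site in a locus of that tissue alone; 78 (24.5%) were higher there and 60 (18.8%) lower, beside 21% and 18.7% of all tested genes. In vBM-MSCs, 77 (16.1%) were higher and 37 (7.72%) lower of 479, beside 12.6% and 9.49%. Without replicate 1 of the vBM-MSCs, these counts were 48 and 19, and 24 were lower without their replicate 2 or replicate 1 of the P-MSCs. In A-MSCs, 116 (18.6%) were higher and 83 (13.3%) lower of 624, beside 16% and 13.9%, and without replicate 3 of the A-MSCs 52 were lower. In P-MSCs, 95 (27.9%) were higher and 59 (17.4%) lower of 340, beside 22.3% and 22.3%, and without replicate 2 of the P-MSCs 35 were lower. The differences from the shares of all tested genes were not tested. For counts with a library left out, the shares of all tested genes are not given here, so those counts cannot be set against them. With limma-trend on log2(TPM + 1), another scaling, the balance in A-MSCs turned to 74 (11.9%) higher and 119 (19.1%) lower, but that of all tested genes turned as well, to 10.8% and 20.4%, and their median log2 difference moved from −0.0045 to −0.1235. In P-MSCs the same scaling gave 123 (36.2%) higher and 43 (12.6%) lower, beside 29.5% and 19.2%. When a single A-MSC library was left out, 80 to 89 genes were higher in A-MSCs. For the loci of both marrow tissues, 26 (21.1%) of 123 genes were higher in marrow and 35 (28.5%) lower, beside 24.8% and 22.4%. With summits of a −log10 q of at least 7 alone the counts were 22 higher and 19 lower. The number of genes tested at that setting is not given here, so these counts cannot be read as shares. The median log2 difference of these sets was 0.0371, 0.0338, −0.000245, 0.118 and −0.0131 in the same order, against 0.0304, 0.0284, −0.00449, −0.00514 and 0.0287 for all tested genes.

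The genes nearest to loci whose summits all lay over 1 kb from a start site were called higher in the tissue of the locus at a larger share than all tested genes in each comparison, and lower at a smaller share except in P-MSCs. These differences in share were not tested. In fBM-MSCs, 42 (39.6%) of 106 such genes were higher and 11 (10.4%) lower, beside the same 21% and 18.7%. In vBM-MSCs, 35 (25.4%) of 138 were higher and 7 (5.07%) lower, beside 12.6% and 9.49%. In A-MSCs, 77 (23.8%) of 324 were higher and 38 (11.7%) lower, beside 16% and 13.9%. With limma-trend on log2(TPM + 1) they were even in A-MSCs, at 56 (17.3%) higher and 57 (17.6%) lower, beside 10.8% and 20.4% of all tested genes. In P-MSCs, 44 (30.1%) of 146 were higher and 35 (24.0%) lower, beside 22.3% and 22.3%. In both marrow tissues, 8 (38.1%) of 21 were higher and 3 (14.3%) lower, beside 24.8% and 22.4%. Left-out libraries moved some of these counts by over 1.5 times, and the shares of all tested genes without those libraries are not given here. Without replicate 1 of the vBM-MSCs 2 nearest genes were lower there, and 4 without replicate 1 or 2 of the P-MSCs or replicate 2 of the A-MSCs. Without replicate 1 of the A-MSCs 21 were lower in A-MSCs. The marrow count of 8 was 5 without replicate 1 of the A-MSCs, replicate 3 of the P-MSCs or replicate 2 of the vBM-MSCs. The median log2 differences were 0.28, 0.241, 0.133, 0.133 and 0.229.

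**Figure D5:**
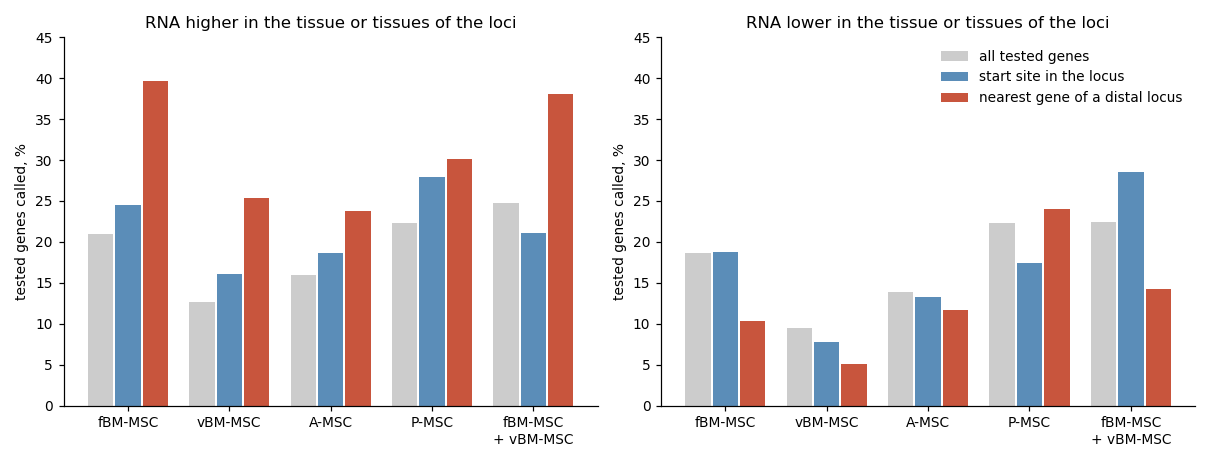
Percent of tested genes called higher (left) or lower (right) in the tissue or tissues of the loci, for all tested genes (grey), genes with a start site in the locus (blue) and genes nearest to a distal locus (red). In fBM-MSCs the nearest genes stand at 39.6% higher, beside 21% of all tested genes.

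Among the fBM-MSC genes with a start site in such a locus, Cd9, Edil3, Cdkn2a, Adamtsl4, Ppt1 and Atp9a led those that were higher. Cd9, a tetraspanin of the cell surface, stood at 1288, 1279 and 1093 TPM in fBM-MSCs and at 173 to 419 TPM elsewhere, without overlap (log2 difference 2.37 ± 0.09, adjusted p = 6.05e-08). Its start site lay in a region of 3 summits in femoral cells, 1 in vertebral cells, 2 in adipose cells and in no region in pulmonary cells. Cdkn2a, which encodes the cell cycle inhibitors INK4a and ARF, stood at 97.2, 111 and 109 TPM in femoral cells and 41.0 and 75.4 TPM in vertebral cells, against 3.14 to 17.9 TPM in adipose cells and pulmonary cells. Edil3, an integrin-binding matrix protein, stood at 23.0 to 30.0 TPM in fBM-MSCs, 13.4 and 17.2 TPM in vBM-MSCs and at most 0.49 TPM elsewhere. Members also lay at genes that were lower. Ier5, with 5 summits in fBM-MSCs, stood at 7.46, 5.53 and 4.43 TPM there and 14.7 to 29.4 TPM elsewhere, at −1.91 ± 0.17 (adjusted p = 1.16e-05). Hacd1 was lower at −1.56 ± 0.13 and Tgfb1i1, the focal adhesion protein Hic-5, at −1.02 ± 0.10. Among nearest genes, Fn1 (fibronectin) at 1.99 ± 0.18, Gadd45a (a stress response gene) at 2.17 ± 0.18, Car8, Insc and Ccnd2 (cyclin D2) were higher in fBM-MSCs, with overlapping ranges for Ccnd2. Zfp36, a protein that destabilizes mRNA, stood at 5.33, 5.85 and 5.47 TPM in fBM-MSCs and 20.9 to 30.1 TPM elsewhere, and Mrvi1 and Tm4sf1 were lower as well, with overlapping ranges for Tm4sf1.

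In vBM-MSCs, Mgat1, C1qtnf5, Glrx, Sdc4, Zc2hc1a and Cox6b2 led the genes that were higher. Mgat1, an enzyme of N-glycan synthesis, stood at 102 and 107 TPM in vBM-MSCs and at 47.1 to 57.4 TPM elsewhere (1.0 ± 0.08, adjusted p = 1.56e-05). C1qtnf5 stood at 124 and 210 TPM against 17.5 to 67.2 TPM, and the heparan sulfate proteoglycan gene Sdc4 at 798 and 588 TPM against 91.7 to 510 TPM. The start site of Glrx, a glutaredoxin, lay in a region of 4 summits in vBM-MSCs and of 1 or 2 elsewhere, and its RNA was higher by 1.51 ± 0.13. Taldo1, a transaldolase of the pentose phosphate pathway, was lower at 229 and 282 TPM against 417 to 877 TPM (−1.36 ± 0.16), and Ckap2 and Chaf1b, both linked to cell division, were lower too, with ranges that overlapped. Nearest genes that were higher included the matrix genes Timp3 (an inhibitor of metalloproteinases, 1.51 ± 0.17), Col6a1 (2.97 ± 0.34), Col8a2 (4.43 ± 0.51), Adamtsl4 (1.15 ± 0.13) and Plod2, which hydroxylates collagen (1.76 ± 0.16), of which Col8a2 and Adamtsl4 overlapped other tissues. Plod2 stood at 229 and 188 TPM in vBM-MSCs and 36.1 to 91.5 TPM elsewhere. Hoxc8 was listed at 0 in all 3 P-MSC libraries, and its vBM-MSC range of 17.8 to 19.2 TPM overlapped A-MSCs, which reached 18.5 TPM. Atic, an enzyme of purine synthesis, was lower at −0.78 ± 0.12, as were Atl2 and Swap70, whose ranges overlapped.

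In A-MSCs, Flt1, Mfsd2a, Ncapg, Inhbb, 9930014A18Rik and Cep55 led. Flt1, a receptor for VEGF, stood at 9.72, 13.6 and 12.8 TPM in A-MSCs and at most 3.32 TPM elsewhere (4.31 ± 0.33, adjusted p = 7.67e-06). Inhbb, the beta B subunit of activin and inhibin, stood at 14.9, 13.0 and 13.4 TPM against at most 6.3 TPM, and its start site lay in a region of 4 summits in adipose cells, 2 in femoral cells, 1 in vertebral cells and none in pulmonary cells. The ranges of the lipid transporter gene Mfsd2a and of the mitotic genes Ncapg and Cep55 overlapped those of other tissues. Eva1c, with 4 summits in A-MSCs and 2 elsewhere, was lower at 0.08, 0.67 and 0.12 TPM against 5.09 to 10.2 TPM, and Tpra1 and Pam were lower as well. Of the 77 nearest genes that were higher, the 6 with the smallest p were Tagln, Palld, Limk2, Ankrd1, Adgrd1 and Etv6. Tagln (the actin-binding protein transgelin) stood at 3142, 3437 and 3682 TPM in A-MSCs and 352 to 1816 TPM elsewhere (1.78 ± 0.14, adjusted p = 1.03e-05), Palld (palladin) differed by 1.24 ± 0.11, Limk2, a kinase that acts on cofilin, by 1.02 ± 0.09, and Ankrd1, a target of YAP, by 2.74 ± 0.22. The adhesion receptor gene Adgrd1 stood at 22.5, 17.1 and 35.5 TPM against at most 1.65 TPM (5.60 ± 0.24), and the ETS factor gene Etv6 differed by 1.29 ± 0.10. Ltbp1, a latent TGF-beta binding protein, Ccdc80 and Pam were lower.

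In P-MSCs, Cdk1, C330027C09Rik, Cd24a, Ncapd2, Marcksl1 and Cbx5 led. Cdk1, the kinase that drives mitosis, stood at 135, 125 and 138 TPM in P-MSCs against 12.4 to 81.7 TPM elsewhere (2.10 ± 0.10, adjusted p = 1.75e-07). Cd24a, a surface sialoglycoprotein, stood at 565, 606 and 630 TPM against 23.4 to 132 TPM (3.34 ± 0.23, adjusted p = 1.3e-06), and its start site lay in a region of 5 summits in P-MSCs and of 1 or 2 elsewhere. The condensin gene Ncapd2 and the heterochromatin protein gene Cbx5 also had ranges above all others. Synpo, which encodes the actin-binding protein synaptopodin, was lower at 1.27 to 1.43 TPM against 3.52 to 29.4 TPM (−3.07 ± 0.16), as were Hist1h2bc and Nedd9. The 6 nearest genes with the smallest p among the 44 that were higher were Sema3a, a guidance factor, at 44.3, 46.4 and 64.7 TPM against 2.3 to 12.6 TPM (2.75 ± 0.22), Tm4sf1, Odc1 (ornithine decarboxylase), Zak, Hdac2 (a histone deacetylase) and Arhgap10. Timp3 was lower at 241, 264 and 258 TPM against 609 to 1759 TPM (−2.05 ± 0.18), with the chemokine gene Cx3cl1 and the septin gene Sept9.

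For the loci of both marrow tissues, Kctd1, Grcc10, Rasa3, Ddx50, Mmp15 and Grin3a led the genes that were higher in marrow. Kctd1 stood at 5.84 to 14.7 TPM in the 5 marrow libraries and 1.78 to 3.34 TPM in the other 6 (2.15 ± 0.23, adjusted p = 2.26e-05), and Rasa3, a Ras GTPase-activating protein, at 16.6 to 22.6 against 8.97 to 13.9 TPM. Mmp15 and Grin3a were at most 1.31 and 0.86 TPM in marrow. Hmgb1, a chromatin protein, Ddias and Srm (spermidine synthase) were lower, by −0.79 ± 0.08, −1.36 ± 0.14 and −0.70 ± 0.08. Nearest genes included Osgin1 (1.65 ± 0.17) and Prelp, a matrix proteoglycan, which stood at 938 and 576 TPM in vertebral cells, 79.3, 11.8 and 24.7 TPM in femoral cells, 26.3 to 48.5 TPM in adipose cells and at most 3.63 TPM in pulmonary cells. Hhat, Mcur1, Trim7 and Ip6k3 were higher too, and Ip6k3 among them reached at most 2.39 TPM in marrow and was listed at 0 in every other library. Axl, a receptor tyrosine kinase, was lower in marrow, at 99.7 to 198 TPM against 326 to 385 TPM (−1.25 ± 0.15, adjusted p = 4.35e-05), with Psmb7 (a proteasome subunit) at −0.32 ± 0.07 and Trim27 at −0.55 ± 0.08.

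The genes at the loci of a single tissue with the most summits did not share a direction. Hmox1 was higher in fBM-MSCs, by 0.79 ± 0.09 (edgeR adjusted p = 6.76e-05), and so was Megf9, by 1.07 ± 0.16 (adjusted p = 0.000405). Ier5 was lower there, by −1.91 ± 0.17 (adjusted p = 1.16e-05). Not all genes of these loci are given here, and none for the loci of vBM-MSCs. Itga5 stood at 399, 440 and 430 TPM in A-MSCs and 42.2 to 296 TPM elsewhere (1.42 ± 0.19, adjusted p = 0.000333), while Ahnak was lower in A-MSCs, by −0.84 ± 0.15 (adjusted p = 0.00213). Fbln2, with 7 members nearest to it in A-MSCs, did not pass the test there (−0.20 ± 0.42, adjusted p = 0.76). In P-MSCs, Patz1 was higher by 1.53 ± 0.29 and Creb3l1 lower by −1.44 ± 0.19, while Yy1 and Sgk1 did not pass the test. Def8 was lower in P-MSCs by −0.36 ± 0.09 (adjusted p = 0.00787), the tissue in which its neighbouring locus was open.

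Lists of genes known from mesenchymal cells were set beside these counts. Of 12063 tested genes with a curated start site, 3756 (31.1%) had it in a member of at least 1 tissue and 3.17% in members of all 4. The share was 70.0% among YAP and TEAD pathway genes (7 of 10) and 61.5% in TGF-beta signalling (8 of 13). It was 50% each among actin cytoskeleton genes (7 of 14) and immediate early and AP-1 genes (9 of 18). The shares of fibrillar matrix genes (7 of 18, 38.9%), positional factors (12 of 46, 26.1%) and adipogenic genes (3 of 12, 25%) stood within a few genes of that of all tested genes. Osteoblast and cartilage genes (3 of 20, 15%) and mesenchymal identity genes (2 of 15, 13.3%) had the lowest. The lists are small, and these shares were not tested.

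The fibrillar matrix genes with members over the start site in all 4 tissues were Thbs1, Ctgf, Cyr61 and Lox, the last encoding an enzyme that crosslinks collagen. Of the 19 tested genes of this list, 15 were higher and 1 lower in marrow, beside 24.8% higher and 22.4% lower of all tested genes. In vBM-MSCs 13 were higher and 0 lower, beside 12.6% and 9.49%, and in P-MSCs 0 and 13, beside 22.3% and 22.3%. The list was mixed in fBM-MSCs, with 7 higher and 5 lower beside 21% and 18.7%, and in A-MSCs, with 4 and 7 beside 16% and 13.9%. Jun and Egr1 had members in all 4 tissues, with 5, 5, 7 and 4 summits at Jun and 3, 5, 5 and 3 at Egr1 from fBM-MSCs to P-MSCs, and Junb and Fos in 3. Of the 18 immediate early and AP-1 genes, 11 were higher and 0 lower in vBM-MSCs, beside 12.6% and 9.49% of all tested genes, while 1 was higher and 11 were lower in fBM-MSCs, beside 21% and 18.7%. Their calls were mixed elsewhere, with 4 higher and 4 lower in A-MSCs (beside 16% and 13.9%), 4 and 3 in P-MSCs (22.3% and 22.3%), and 5 and 4 in marrow (24.8% and 22.4%). Fos stood at 23.9 and 24.7 TPM in vertebral cells, 6.42 to 7.49 TPM in adipose cells, 4.13 to 5.99 TPM in pulmonary cells and 1.44 to 3.04 TPM in femoral cells, while its start site lay in regions of 3, 5, 2 and 3 summits in vertebral cells, adipose cells, pulmonary cells and femoral cells. The order of the summit numbers was thus not that of the RNA levels.

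In the other lists, Lmna (lamin A) had 3 summits in each tissue, and the actin genes Actg1 and Actb, with Tpm2 and Vim, had members in 3. Of 15 tested actin cytoskeleton genes, 10 were higher and 4 lower in A-MSCs, beside 16% and 13.9% of all tested genes, and 1 was higher and 11 were lower in fBM-MSCs, beside 21% and 18.7%. In P-MSCs 4 were higher and 0 lower, beside 22.3% and 22.3%, in vBM-MSCs 3 and 0, beside 12.6% and 9.49%, and in marrow 1 and 10, beside 24.8% and 22.4%. The TGF-beta repressor gene Skil had 5, 3, 6 and 4 summits and stood at 12.2 to 18 TPM, without a call in any contrast (lowest adjusted p = 0.0726). Among genes of the YAP and TEAD pathway, Amotl2, Tead1, Tead3, Wwtr1 and Yap1 each had members in 3 tissues. Of the 10 genes of this list, 0 were higher and 7 lower in fBM-MSCs, beside the same 21% and 18.7%. In P-MSCs 4 were higher and 1 lower, in A-MSCs 2 and 0, in vBM-MSCs 1 and 1, and in marrow 1 and 6. Twist1, a mesenchymal bHLH factor, had 4, 5, 3 and 3 summits. Of the 20 osteoblast and cartilage genes, 17 were higher in marrow and 0 lower, while only Runx1, Sox9 and Runx2 had members over the start site in any tissue. Of the 12 adipogenic genes, 6 were higher and 1 lower in marrow, and Cebpd, Ebf3 and Cebpa had members. Of the 13 TGF-beta signalling genes 7 were higher and 1 lower in marrow, of the 46 positional factors 19 and 14, and of the 15 mesenchymal identity genes 5 and 4, beside the same 24.8% and 22.4%. Single tissues differed from this. In vBM-MSCs (12.6% and 9.49% of all tested genes), 12 osteoblast and cartilage genes were higher and 0 lower, 2 and 0 adipogenic genes, 5 and 1 TGF-beta genes, 17 and 4 positional factors, and 4 and 0 identity genes. In P-MSCs (22.3% and 22.3%) the counts in that order of lists were 0 and 10, 2 and 6, 1 and 6, 17 and 13, and 4 and 5. In fBM-MSCs (21% and 18.7%) they were 13 and 0, 3 and 1, 6 and 3, 17 and 14, and 2 and 5, and in A-MSCs (16% and 13.9%) 2 and 9, 3 and 2, 4 and 4, 13 and 7, and 4 and 3. These lists were chosen with results of these data known, and their counts describe the lists only.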

How the data were processed

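MSCs of 4 tissues were measured by ATAC-seq, with 24 sequenced samples in 4 pooled lists, and by RNA-seq, of which 11 libraries were analysed. Replicate 3 of the vBM-MSC RNA was not analysed here. The authors made the ATAC-seq lists from reads cleaned by Trim Galore and placed once on mm10 by Bowtie; Picard took out duplicates, ends were moved to the Tn5 cut, blacklisted stretches were dropped, and MACS2 found summits without a model or a local background. The deposited lists hold each summit's fold enrichment as a ratio, its −log10 p and −log10 q values, a display score and the summit offset, on chromosomes 1 to 19. The score and −log10 p were not used. Signal and depth can change how many summits are listed. The steps of the fold values gave the same background pileup in each list, which corresponds to near equal read totals at peak calling if reads were extended alike, while the totals themselves are unknown here. For RNA-seq, the authors ran RSEM with STAR on Smart-seq2 libraries and deposited the expected count, TPM and FPKM of each gene with its length. FPKM was not used. Versions of these tools are not given in the sources used here.

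Summits were counted per region, and members of different tissues were merged into loci at an overlap of 1 base or more. Start sites, exons and sequences came from curated RefSeq transcripts of GRCm38. A nearest gene had its start site within 100 kb. Expected counts were rounded and tested in 1 model of tissue with edgeR 4.0.16 in R 4.3.3 (TMM, quasi-likelihood, two-sided, Benjamini-Hochberg adjusted p under 0.05) over the 12509 genes that reached 1 CPM in 2 or more libraries. The test was run on simulated data first, with 200 genes raised 4-fold in a tissue. It recovered 85% to 92.5% of them over the 4 tissues, and 2.63% to 6.81% of the genes called were false. The ± values are standard errors worked back from each log2 difference and its F statistic. Alternatives used DESeq2 1.42.0, limma 3.58.1, stricter lists, other windows and each library left out. Python 3.11.15, pandas 2.3.3, numpy 2.4.6, scipy 1.17.1 and matplotlib 3.10.9 were used.

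Named were, per tissue, the 3 regions with the most summits; the 6 loci of all tissues and the 5 loci of a single tissue or of both marrow tissues with the most summits; up to 6 genes higher and 3 lower by smallest p at such loci; the genes nearest to the most members; and, per list, up to 4 genes with members in the most tissues. List members beyond 4, the whole genes covered, and the Cyr61 and Ctgf loci were named after their values were seen. The members and lists were chosen with earlier results of these data known. Some items that this rule names are not reported here.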

Additional observations from a re-analysis of the deposited data

How the results depend on the processing

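Of 411 values of 38 results under other settings, 367 kept within the limits set for them and 44 moved. With summits of a −log10 q of at least 7 alone, members numbered 1172 in femoral, 1514 in vertebral and 1316 in pulmonary cells, and were 2.065% of femoral, 2.982% of vertebral and 3.396% of adipose regions. With summits of a fold of at least 5 alone, the shares were 2.12%, 3.098%, 3.491% and 2.474% from fBM-MSCs to P-MSCs. The order of the 4 shares was the same in both. At that −log10 q there were 3506 loci, 324 of fBM-MSCs alone, 484 of vBM-MSCs alone and 377 of P-MSCs alone. Genes with a start site in these loci were 45 higher and 38 lower for fBM-MSCs, 48 higher for vBM-MSCs and for both marrow tissues 22 higher and 19 lower. Nearest genes were 20 higher and 4 lower for vBM-MSCs, 40 higher for A-MSCs, 24 higher and 18 lower for P-MSCs, and 5 higher for both marrow tissues. Fewer loci were tested there. Only the loci changed, so the shares of all tested genes stayed those given above. The numbers of genes tested at these loci are not given here, so the counts cannot be set against those shares. With limma-trend on log2(TPM + 1), 74 start site genes were higher and 119 lower for A-MSCs, and 56 nearest genes higher and 57 lower, while of all tested genes 10.8% were higher and 20.4% lower. AP-1 matches in members stood in 2.92%, 2.23%, 3.08% and 3.46% of windows with 50 bases on each side of the summit, which are shorter, and in 6.46% in fBM-MSCs at the stricter −log10 q.

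Leaving out each library in turn gave 48 to 89 start site genes higher and 19 to 40 lower for vBM-MSCs, 52 to 94 lower for A-MSCs and 35 to 64 lower for P-MSCs. Nearest genes ranged from 2 to 9 lower for vBM-MSCs, 21 to 43 lower for A-MSCs and 5 to 8 higher for both marrow tissues. Without replicate 1 of the vBM-MSCs the vBM-MSC counts were 48, 19 and 2, and without their replicate 2 24 start site genes were lower. Without replicate 1 of the P-MSCs 24 start site genes and 4 nearest genes were lower for vBM-MSCs, and 4 nearest genes without replicate 2 of the P-MSCs or replicate 2 of the A-MSCs. The lowest counts came without replicate 3 of the A-MSCs (52), replicate 1 of the A-MSCs (21) and replicate 2 of the P-MSCs (35), and the marrow count of 5 without replicate 1 of the A-MSCs, replicate 3 of the P-MSCs or replicate 2 of the vBM-MSCs. Without a vBM-MSC library the lone other was assumed to vary like the other groups. Shares of all tested genes with a library left out are not given here, so these ranges cannot be set against them.

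Libraries of the same replicate number did not deviate together (15 pairs, r −0.0279 to 0.125, median 0.00727). With a replicate block, 75 start site genes were higher and 60 lower for fBM-MSCs, and no count moved by over 1.5 times. Leaving out the loci of mostly repeated 32-base words was chosen after seeing the data. Each ATAC-seq list pools its replicates, so that no value of a region has a replicate error.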
